A study of Mus musculus with 79 samples.

Results

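Neutrophil marker genes, 9 in number, were described in mouse lung: S100a8, S100a9, Cxcr1, Cxcr2, Csf3r, Retnlg, Ngp, Ltf and Camp. They were picked by symbol or synonym from the 31350 rows of the deposited array table, of which 21837 carried a symbol, and each of the 9 genes had 1 row. Whole-lung RNA from 79 mice was hybridised to Affymetrix moGene2.1 arrays, with 1 array per mouse. C57BL/6J wild-type (WT) mice and their Scnn1b-tg littermates, called βENaC mice, were exposed at 5 to 7 weeks of age to cigarette smoke or to room air (sham). Smoke came from 6 research cigarettes a day with their filters removed, exposure lasted 1 day or 5 consecutive days, and lungs were taken 4 hours after the last exposure. βENaC mice carry a transgene that overexpresses Scnn1b, a subunit of the epithelial sodium channel, in airway epithelium, and the promoter that drives it is not given in the sources used here. Males and females entered every arm, giving 16 groups of 4 to 6 mice, with 40 mice at 1 day and 39 at 5 days. The comparisons asked whether each gene differed with exposure, genotype or sex within a duration, and whether the exposure response differed between genotypes or durations.

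Neutrophils mature in the bone marrow through stages that each transcribe their own set of granule genes. Primary and secondary granule proteins are transcribed mainly before release, so Ngp, Ltf and Camp mark immature cells more than circulating ones. Mature neutrophils carry abundant S100a8 and S100a9 transcripts, which encode the chains of the calcium-binding protein calprotectin, and follow chemokines through Cxcr2 and growth signals through Csf3r, the receptor for granulocyte colony-stimulating factor. Several of these genes are also used by other cells of the lung: Ltf encodes the iron-binding protein lactoferrin, which airway glands and surface epithelium secrete as well. In homogenised lung, fewer neutrophils and less transcript per neutrophil cannot be told apart.

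Promoter sequence is shown for 3 genes that varied together from mouse to mouse and for Cxcr1, which varied apart from them. The RefSeq table, on build GRCm38.p6, held a promoter for 9 of the 9 genes. Only bases before the annotated gene start are printed, 5′ to 3′ on the strand of the gene. They lie at chr3:90668821-90669070 on the plus strand for S100a8, chr3:90695722-90695971 on the minus strand for S100a9, chr1:74153744-74153993 on the plus strand for Cxcr2 and chr1:74194709-74194881 on the minus strand for Cxcr1. Capitals mark GAGGAA on either strand, the core bound by the myeloid factor PU.1, TTGCNNAA on either strand, the pattern of C/EBP factors, and TATAAA on the gene strand.
S100a8: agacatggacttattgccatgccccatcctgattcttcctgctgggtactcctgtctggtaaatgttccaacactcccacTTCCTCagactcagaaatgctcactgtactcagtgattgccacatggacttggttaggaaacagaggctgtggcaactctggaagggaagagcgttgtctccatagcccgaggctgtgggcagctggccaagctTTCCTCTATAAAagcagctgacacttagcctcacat
S100a9: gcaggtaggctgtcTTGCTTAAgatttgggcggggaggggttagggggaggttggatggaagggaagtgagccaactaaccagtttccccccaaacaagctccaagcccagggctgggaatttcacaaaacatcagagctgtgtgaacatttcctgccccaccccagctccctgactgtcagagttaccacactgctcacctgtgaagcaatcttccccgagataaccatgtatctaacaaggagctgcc
Cxcr2: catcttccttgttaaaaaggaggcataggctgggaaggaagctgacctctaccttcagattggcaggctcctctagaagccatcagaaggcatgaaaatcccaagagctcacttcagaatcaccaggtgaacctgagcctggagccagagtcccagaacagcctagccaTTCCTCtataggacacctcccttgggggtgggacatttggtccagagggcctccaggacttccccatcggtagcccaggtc
Cxcr1: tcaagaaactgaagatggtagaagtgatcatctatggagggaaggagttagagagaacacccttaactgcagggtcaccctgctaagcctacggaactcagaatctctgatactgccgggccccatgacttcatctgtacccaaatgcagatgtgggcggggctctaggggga

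S100a8 held GAGGAA, read as TTCCTC, at 170 and at 36 bases before the start, the second directly followed by TATAAA at 30 bases. Cxcr2 held 1 GAGGAA, S100a9 held 1 TTGCNNAA, and Cxcr1 held none of these letters in its 173 bases. Among the other 5 genes, GAGGAA stood in Csf3r and Ltf, TTGCNNAA stood in Retnlg, Ltf and, with 2 matches, Ngp, and Camp held neither. Over 32851 mouse promoters searched in the 250 bases before the start, 23.3% held GAGGAA, 9.6% held TTGCNNAA and 7.6% held TATAAA. The matches describe the letters only. On the same build the gene bodies lie at chr3:90669071-90670034 for S100a8, chr3:90692630-90695721 for S100a9, chr1:74191785-74194708 for Cxcr1, chr1:74153994-74161246 for Cxcr2, chr4:126023441-126044975 for Csf3r, chr16:48872608-48874498 for Retnlg, chr9:110419808-110423012 for Ngp, chr9:111019292-111042766 for Ltf and chr9:109847377-109849456 for Camp.

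The arrays carried the labelled tissue and genotype. The mean of 5 measured lung genes, among them surfactant and endothelial markers, lay between 12.2 and 12.5 log2 units in every mouse. Scnn1b lay between 8.42 and 9.48 in WT mice and between 11.5 and 11.9 in βENaC mice, although 1 mouse had been relabelled WT from this level before deposit, so that mouse is no check. For 13 WT smoke-exposed mice one label field named the other genotype, and their Scnn1b levels were those of WT mice. Pairs of arrays correlated at 0.965 or more. Replicate 1 of the βENaC sham males at 1 day, replicate 3 of the βENaC smoke-exposed females at 5 days and replicate 2 of the WT smoke-exposed females at 5 days correlated least with the other arrays of their duration (median r 0.977, 0.980 and 0.981, against 0.990 over all arrays). All values below are log2 intensities, and coefficients are log2 differences (smoke minus sham, βENaC minus WT, male minus female). A gene was called at q below 0.05, the Benjamini-Hochberg adjusted p of limma over 31350 rows, with a difference beyond 1.3-fold in either direction. Terms that compare differences between genotypes, sexes or durations used q alone.

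Across the 3 factors and both durations, Cxcr1 and Ltf differed with genotype, and Retnlg fell with smoke and was lower in males at 1 day. Cxcr1 rose with smoke at 5 days, with a coefficient of 2.01 in WT mice and 0.02 in βENaC mice. The test of that difference between genotypes did not pass (q = 0.224). With exposure at 1 day 1 of the 9 genes was called, against 1.07% of all rows, and at 5 days 1 of 9 against 1.15%. With genotype 2 of 9 were called at 1 day against 1.54% of rows, and 2 of 9 at 5 days against 2.52%. With sex 1 of 9 was called at 1 day against 0.836% of rows, and 0 of 9 at 5 days against 0.198%, where 1 gene had an unadjusted limma p under 0.05. The median coefficient of the 9 genes with exposure was −0.45 at 1 day and −0.20 at 5 days, beside 0.01 and −0.0018 over all rows. Within groups, the SD between mice of S100a8, S100a9, Cxcr1, Cxcr2, Csf3r and Retnlg ranged from 0.54 to 0.79 log2 units, and each exceeded that of at least 98.5% of rows.

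**Figure D1:**
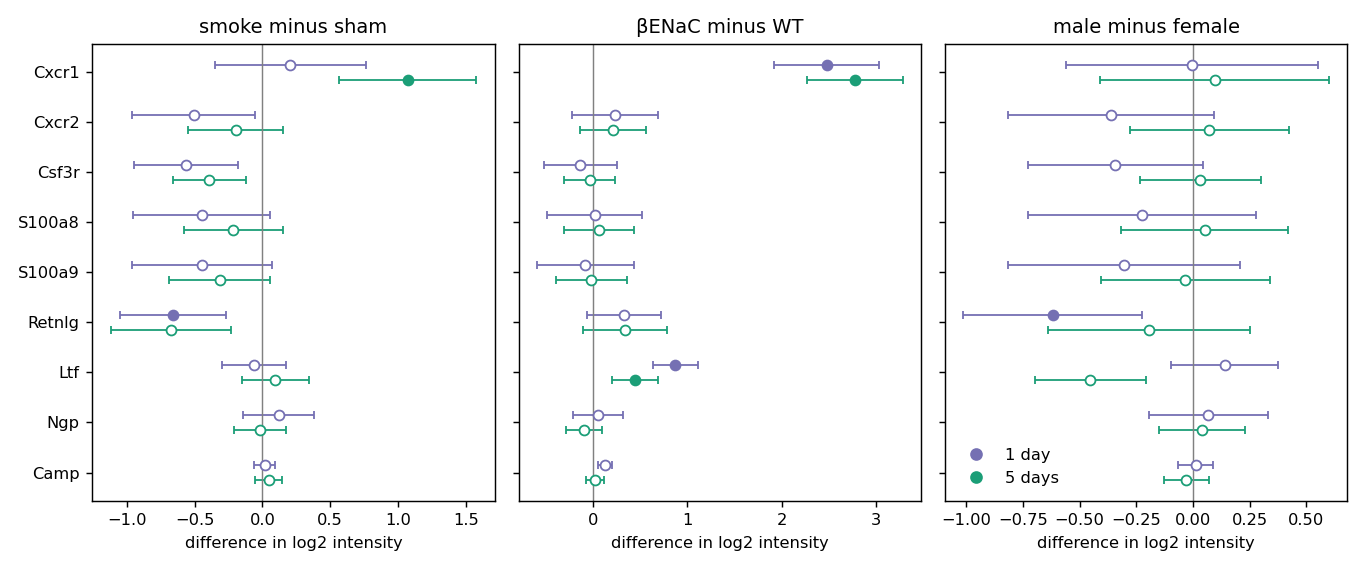
Coefficients of the 9 genes in log2 units (horizontal axis) for exposure, genotype and sex, with 95% intervals, at 1 day and at 5 days; filled symbols were called. Cxcr1 stands furthest from 0 for genotype, at 2.48 and 2.78, and Retnlg lies below 0 for exposure at both durations, at −0.66 and −0.67.

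Cxcr1 and Cxcr2 encode the receptors for the neutrophil-attracting CXC chemokines and are neighbours on chromosome 1. Cxcr1 had the widest range of the 9 genes, from 3.18 to 8.49. At 5 days the 11 WT sham mice had a lowest, median and highest value of 3.22, 3.79 and 4.55, whereas the 9 βENaC sham mice had 6.49, 7.50 and 8.33. Every βENaC sham mouse lay above every WT sham mouse, which held for 1 of the 9 genes and for 0.651% of all rows. The difference between these sham arms was 3.77 ± 0.26 (SE), or 13.7-fold (q = 1.76e-12). WT sham mice at both durations and WT mice after 1 day of smoke averaged 3.74 to 3.91, below the array medians of 4.44 to 4.55. No detection call was used, so whether these WT values stood above background is not known here. Folds against them carry that limit. Cxcr1 and Ltf, 2 of the 9 genes, were called in sham mice at 5 days, against 2.61% of rows. Without any 1 of 9 sham mice the count was 1, with Cxcr1 still called and Ltf not.

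At 1 day the genotype difference of Cxcr1 was also present, but the βENaC mice were spread more widely. The WT sham mice ranged from 3.18 to 4.35 with a median of 3.86, and the βENaC sham mice from 4.09 to 7.63 with a median of 6.38. The βENaC sham females measured 4.28, 6.76, 6.14, 5.78 and 7.10, and the βENaC sham males 7.40, 7.63, 5.94, 4.09 and 6.63. In each sex 1 βENaC mouse therefore lay within the WT range, and the other 4 lay above it. The sham difference was 2.31 ± 0.40 (q = 5.74e-04), with the same 2 genes called as at 5 days, against 0.826% of rows. Over both exposures the genotype coefficient was 2.48 ± 0.27 (5.56-fold, q = 3.51e-08) at 1 day and 2.78 ± 0.25 (6.85-fold, q = 1.98e-10) at 5 days. Sex did not move it detectably, with coefficients of −0.01 (95% interval −0.56 to 0.55) and 0.10 (−0.41 to 0.60).

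Smoke for 5 days raised Cxcr1 in WT mice. The WT smoke-exposed females measured 5.89, 4.71, 5.92, 6.76 and 6.56, and the males 6.46, 6.21, 4.72 and 4.94. All 9 lay above the highest of the 11 WT sham mice, 4.55, a separation found in 0.188% of rows and in no other of the 9 genes. The coefficient was 2.01 ± 0.26, or 4.03-fold (q = 6.22e-06), and it stayed between 1.87 and 2.17 when each of 39 mice was left out. The low WT sham level limits this fold as well. In βENaC mice the smoke-exposed arm ranged from 5.94 to 8.45 with a median of 7.59 and overlapped the sham arm throughout, with a coefficient of 0.02 (95% interval −0.52 to 0.55, q = 0.990). Over both genotypes the exposure coefficient at 5 days was 1.07 ± 0.25 (2.10-fold, q = 0.00447).

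**Figure D2:**
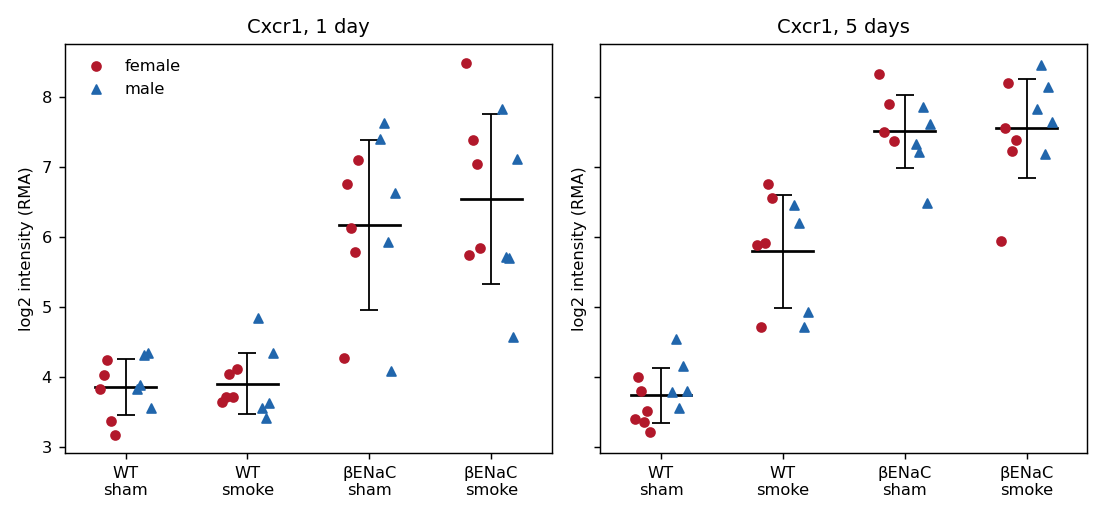
Cxcr1 log2 intensity (vertical axis) of each mouse by genotype, exposure and duration, females as circles and males as triangles, with bars at the mean ± SD of the arm. The 9 WT mice smoke-exposed for 5 days (mean 5.80) sit between the 11 WT sham mice (3.74) and the βENaC arms (7.51 and 7.55).

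After 1 day of smoke WT mice did not differ detectably from sham mice in Cxcr1, and both arms averaged below the array medians. The WT smoke-exposed females measured 3.65, 3.72, 4.04, 3.72 and 4.12, and the males 4.85, 3.57, 3.41, 3.64 and 4.34. The coefficient was 0.04 (95% interval −0.76 to 0.85, q = 0.977), and in βENaC mice it was 0.37 (−0.43 to 1.17, q = 0.706). In WT mice the exposure response was 2.01 ± 0.32 larger at 5 days than at 1 day (q = 6.46e-04), a term called in 1 of the 9 genes and in 0.201% of rows. In βENaC mice the same term was −0.33 ± 0.60 (q = 0.915), with 0 of 9 genes called by limma, and 0 at an unadjusted p under 0.05, against 0.0766% of rows.

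The test of the difference between genotypes did not pass. At 5 days the exposure response of Cxcr1 was 2.01 ± 0.38 lower in βENaC than in WT mice, a term with an unadjusted p of 7.14e-06 and a q of 0.224, with 0% of rows called. At 1 day the term was 0.32 (q = 0.941), with 0 of 9 genes called against 0.00638% of rows. The three-way term with duration was −2.33 ± 0.69 (unadjusted p = 0.00114, q = 0.827), again with 0% of rows called. In smoke-exposed mice the genotype difference of Cxcr1 was 2.64 ± 0.40 at 1 day and 1.78 ± 0.26 at 5 days (q = 8.48e-05 and 6.81e-05). There 2 of the 9 genes, Cxcr1 and Ltf, were called at 1 day against 1.44% of rows, and Cxcr1 alone at 5 days against 0.967%.

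By mean level the 8 arms of Cxcr1 ran from WT sham at 5 days (3.74 ± 0.39, SD), WT sham at 1 day (3.86 ± 0.40) and WT smoke at 1 day (3.91 ± 0.44), through WT smoke at 5 days (5.80 ± 0.81), βENaC sham at 1 day (6.18 ± 1.21) and βENaC smoke at 1 day (6.54 ± 1.21), to βENaC sham and smoke at 5 days (7.51 ± 0.52 and 7.55 ± 0.71). Neighbours in this order differed by less than the larger of their SDs except at the step from WT smoke at 1 day to WT smoke at 5 days. The day of each experiment is not given in the sources used here. Whether the durations were run on separate days is therefore not known, and steps between them cannot be told apart from such a difference. The effect of duration itself was not tested.

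As a mean, genes used as markers of alveolar macrophages moved with Cxcr1. The mean level of 6 of 6 measured markers lay at 8.19 to 8.42 in WT sham mice at 5 days, 8.54 to 8.83 in WT smoke-exposed mice, 8.70 to 9.63 in βENaC sham mice and 8.29 to 9.74 in βENaC smoke-exposed mice. Of the 6, Marco, Mrc1, Chil3 and Atp6v0d2 rose in βENaC mice at both durations, against 1.54% and 2.52% of all rows called. Siglecf and Pparg were not called. Marco (0.94 ± 0.19) and Atp6v0d2 (0.70 ± 0.15) rose with 5 days of smoke in WT mice (q = 0.00386 and 0.00560), against 0.89% of rows. There 1 of the 6 coefficients lay below 0. In βENaC mice at 5 days limma called 0 of the 6 with exposure, and 5 coefficients lay below 0. Over both genotypes it also called 0 of the 6. At an unadjusted limma p under 0.05 these 2 comparisons gave 2 and 4 genes. Across the 79 mice Cxcr1 correlated with this mean at r = 0.872, and at 0.713 once group means were removed, whereas its correlations with S100a8, S100a9, Cxcr2, Csf3r and Retnlg lay between −0.136 and 0.129. These points share an array and a normalisation within each mouse, and the part of the macrophage markers in the Cxcr1 result was not tested.

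The rows most like Cxcr1 over the 79 mice were Ctsk (r = 0.947), which encodes the protease cathepsin K, the zinc transporter gene Slc39a2 (0.937), Plet1 (0.935), the membrane glycoprotein gene Gpnmb (0.934) and the lysosomal channel gene Mcoln3 (0.933). With 5 days of smoke in WT mice Ctsk rose by 1.07 (q = 0.0123), Slc39a2 by 0.99 (q = 9.89e-04), Gpnmb by 1.16 (q = 0.0242) and Mcoln3 by 0.62 (q = 0.0144). Plet1 had a coefficient of 0.38 (q = 1.21e-04), just under the 1.3-fold limit. With genotype all 5 were called at both durations, Ctsk at 1.95 and 1.97, against 1.54% and 2.52% of all rows. Within groups their r with Cxcr1 was 0.703 to 0.828. They were picked by r over all 79 mice, which takes in the group differences, so their calls are no separate support.

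S100a8, S100a9, Cxcr2 and Csf3r varied together from mouse to mouse. Over 79 mice the 6 pairs among them correlated at 0.910 to 0.948, and at 0.936 to 0.956 within groups. Also within groups, the pairs ran at 0.954 to 0.973 over the 40 mice at 1 day and 0.879 to 0.917 over the 39 mice at 5 days. Retnlg, a resistin-like protein gene of myeloid cells, followed them more loosely at 0.610 to 0.727. Ltf and Camp did not follow them, with correlations of −0.0753 to 0.0759 and −0.0148 to 0.0853. Ngp correlated with these 5 genes at 0.122 to 0.277 over all mice and at 0.155 to 0.346 within groups. Within groups it ran at −0.222 to 0.249 over the mice at 1 day and at 0.503 to 0.639 over those at 5 days. Ngp was low in every mouse, and its values of 4.02 and 3.83 at 5 days stood apart from their groups. Il1b was among the 5 rows most like each of S100a8, S100a9, Cxcr2 and Csf3r (r = 0.877 to 0.910). It fell with smoke at 5 days by 0.62 (q = 0.0159) and was not called at 1 day (q = 0.102). Stfa2l1, Mmp9 and Nlrp12, the other such rows outside these genes, were not called with exposure at either duration.

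**Figure D3:**
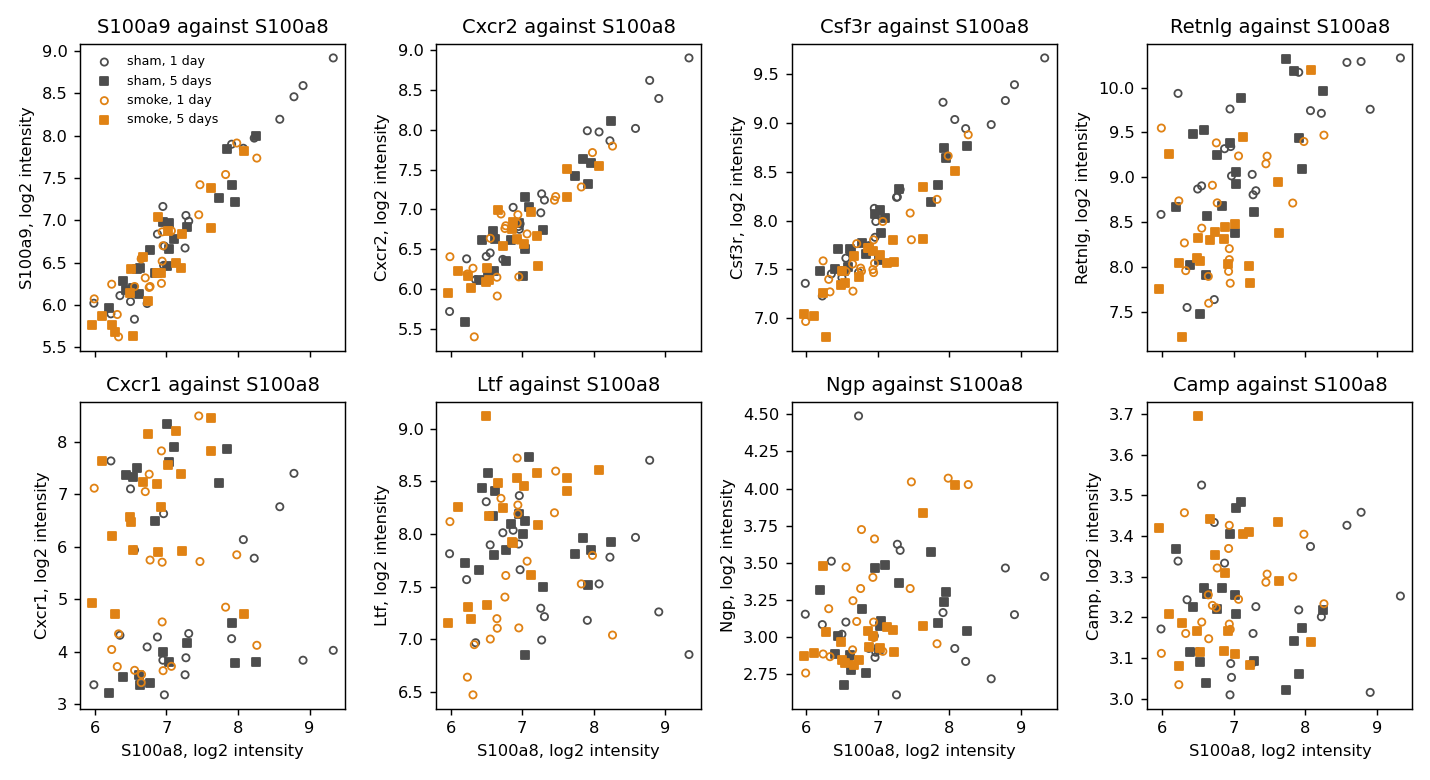
Log2 intensity of each of the other 8 genes (vertical axes) against S100a8 (horizontal axis), 1 point per mouse, sham in grey and smoke in orange, open circles at 1 day and filled squares at 5 days. S100a9, Cxcr2 and Csf3r rise along a line with S100a8 (r = 0.948, 0.924 and 0.935), while Cxcr1, Ltf and Camp do not (−0.00102, 0.0159 and 0.00993).

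A small set of mice was high in all 4 genes. In all, 7 mice lay more than 1 log2 unit above the median of their duration in S100a8, S100a9, Cxcr2 and Csf3r, and all 7 were sham mice, 6 at 1 day and 1 at 5 days. Of the 6 at 1 day, 4 were βENaC and 2 were WT, and 4 were female and 2 male. The highest was replicate 2 of the WT sham females at 1 day, with 9.33 for S100a8, 8.92 for S100a9, 8.90 for Cxcr2 and 9.66 for Csf3r. Replicate 1 of the βENaC sham males at 1 day, one of the arrays that stood apart, was also among the 7, with 8.78, 8.46, 8.62 and 9.23. Mice were not compared by this grouping, which describes the spread only.

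Exposure moved none of S100a8, S100a9 and Cxcr2 past the threshold. At 1 day S100a8 had a lowest, median and highest value of 5.99, 7.12 and 9.33 in 20 sham mice and 5.99, 6.85 and 8.26 in 20 smoke-exposed mice. S100a9 ran from 5.83 through 6.91 to 8.92 in sham mice and from 5.62 through 6.53 to 7.91 with smoke. Cxcr2 ran from 5.72 through 6.99 to 8.90 in sham mice and from 5.40 through 6.73 to 7.80 with smoke. The sham and smoke ranges overlapped over most of their length, and the upper end was lower with smoke for each gene. The coefficients were −0.45 ± 0.25 for S100a8 (q = 0.303), −0.45 ± 0.25 for S100a9 (q = 0.320) and −0.51 ± 0.22 for Cxcr2 (q = 0.170).

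At 5 days the coefficients of S100a8, S100a9 and Cxcr2 were −0.21 (95% interval −0.58 to 0.15), −0.31 (−0.69 to 0.06) and −0.20 (−0.55 to 0.15). Genotype left S100a8 at 0.02 (−0.49 to 0.52) at 1 day and 0.06 at 5 days, S100a9 at −0.08 and −0.02, and Cxcr2 at 0.23 and 0.21, with every q at or above 0.536. When single mice were left out, the genotype coefficient changed sign for S100a8 at 1 day (−0.07 to 0.12) and for S100a9 at 1 day (−0.17 to 0.01) and 5 days (−0.08 to 0.06), and kept its sign for Cxcr2. At 5 days WT sham mice ran from 6.20 through 6.96 to 8.25 for S100a8 and βENaC sham mice from 6.44 through 7.01 to 7.84, within the same range.

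Csf3r lay lower with smoke at both durations and was called in WT mice at 5 days. The WT sham females measured 7.49 to 8.76 with a median of 7.73 over 6 mice, and the WT sham males 8.64, 8.74, 7.71, 8.33 and 7.87. The WT smoke-exposed females measured 7.72, 8.51, 7.58, 7.69 and 7.34, and the males 7.48, 7.26, 6.81 and 7.04. Among males every smoke-exposed mouse lay below every sham mouse, while females overlapped. This separation of the males was seen in 2 of the 9 genes, Csf3r and S100a8, and in 2.06% of all rows. The coefficient in WT mice was −0.61 ± 0.17 (1.53-fold lower, q = 0.0490), and 2 of the 9 genes, Cxcr1 and Csf3r, were called there against 0.89% of rows.

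This Csf3r call sat at the threshold. It held when 11 of the 39 mice at 5 days were left out in turn and was lost for the other 28, with coefficients from −0.70 to −0.52 and q from 0.0164 to 0.121. It was strongest without replicate 2 of the WT smoke-exposed females, at −0.70 (q = 0.0164), and then without replicate 3 of the WT sham males, at −0.68 (q = 0.0286). Over both genotypes at 5 days the coefficient was −0.39 ± 0.13 (q = 0.0690), and in βENaC mice it was −0.20 (95% interval −0.55 to 0.15, q = 0.699). The difference in response between genotypes was 0.34 ± 0.26 and was not called (limma, unadjusted p = 0.197). Nor was the joint test of exposure with genotype or sex (limma, unadjusted p = 0.0345). At 1 day Csf3r ran from 7.23 through 8.18 to 9.66 in sham mice and from 6.97 through 7.56 to 8.88 with smoke, with a coefficient of −0.56 ± 0.19 (q = 0.0544). Leaving out any 1 of 11 mice brought this q under the threshold, to 0.0238 without replicate 4 of the WT sham females at 1 day. In WT mice at 1 day 0 of the 9 genes were called by limma, with 3 at an unadjusted p under 0.05 (Csf3r, Retnlg and Cxcr2), against 1.25% of rows.

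**Figure D4:**
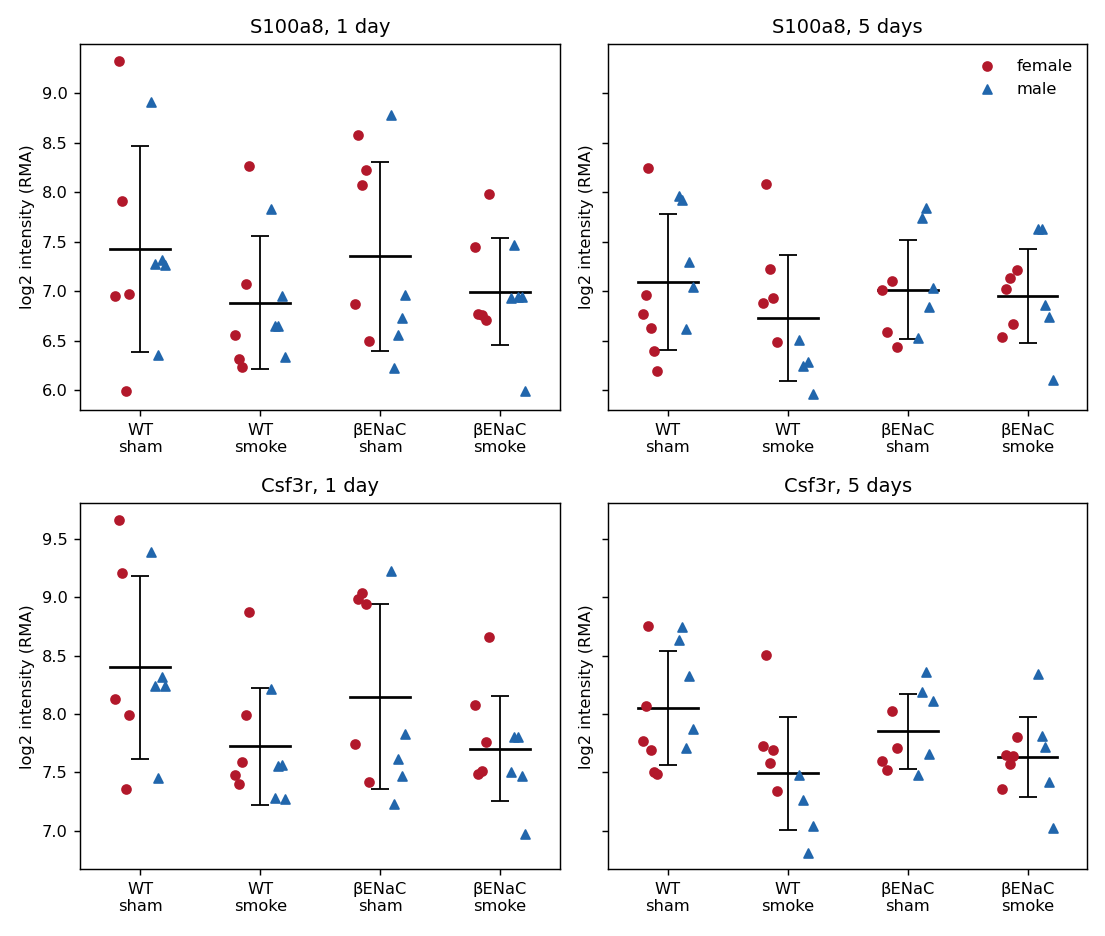
S100a8 and Csf3r log2 intensity (vertical axes) of each mouse by genotype, exposure and duration, females as circles and males as triangles, with bars at the mean ± SD of the arm. Csf3r averaged 8.05 in WT sham and 7.49 in WT smoke-exposed mice at 5 days, and S100a8 averaged 7.09 and 6.73 with overlapping points.

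Retnlg fell with smoke at 1 day. The 20 sham mice had a lowest, median and highest value of 7.55, 9.33 and 10.3, and the 20 smoke-exposed mice 7.60, 8.72 and 9.55. The ranges overlapped, and the smoke-exposed mice reached less high. The coefficient was −0.66 ± 0.19, or 1.58-fold lower (q = 0.0237), and q stayed between 0.00552 and 0.0417 when each mouse was left out. At 5 days the medians were 9.07 in sham and 8.32 in smoke-exposed mice, and the coefficient was about as large, −0.67 ± 0.22 (1.60-fold lower), but with q = 0.0567 the gene was not called.

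At 5 days 1 smoke-exposed mouse stood far from the rest of its group in Retnlg. The WT smoke-exposed females measured 8.44, 10.2, 7.83, 8.03 and 8.10, and the second of them was one of the arrays that stood apart. Without replicate 2 of WT_Smoke_Female_5day the coefficient of Retnlg for exposure at 5 days was −0.79 (q = 0.0107), and without all 3 arrays that stood apart it was −0.84 (q = 0.00462). The responses at 1 and 5 days did not differ detectably, with a difference of −0.02 ± 0.30 (q = 0.991).

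Retnlg was also lower in males at 1 day. Females ran from 8.27 through 9.28 to 10.3 and males from 7.55 through 8.76 to 10.3, with overlap over most of the range. The coefficient was −0.62 ± 0.19 (1.54-fold lower in males, q = 0.0344), and the call was lost without any 1 of 9 mice. These were replicates 1 and 4 of the βENaC smoke-exposed males, 2 of the WT smoke-exposed males, 3 of the WT sham males, 4 of the βENaC sham males, 2 and 3 of the WT sham females, 2 of the βENaC sham females and 5 of the WT smoke-exposed females. Without 1 of them the coefficient of Retnlg for sex at 1 day lay between −0.60 and −0.54, with q from 0.0513 to 0.0598. At 5 days the coefficient was −0.19 (95% interval −0.64 to 0.25, q = 0.798), and the difference between durations was 0.42 ± 0.30 (q = 0.661). With genotype Retnlg had coefficients of 0.33 and 0.34 (q = 0.402 and 0.400).

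The rows most like Retnlg over the 79 mice were F630028O10Rik (r = 0.784), Padi4 (0.760), which encodes a histone-citrullinating enzyme of granulocytes, the integrin gene Itgam (0.742), Cyp4f18 (0.732) and Lpcat2 (0.730). Padi4 fell with smoke at 1 day by 0.51 (q = 0.00241), Itgam fell by 0.46 (q = 0.0310) and Cyp4f18 fell by 0.60 (q = 0.00414). F630028O10Rik and Lpcat2 were not called there (q = 0.0777 and 0.0663), beside 1.07% of all rows called. Eosinophil markers also varied with Retnlg within groups: the mean of 4 of 4 measured markers had r = 0.586, and it ran from 3.71 to 5.17 in sham and 3.34 to 4.64 in smoke-exposed mice at 1 day. Of these, Ccr3 alone was called with smoke at 5 days, against 1.15% of all rows, and fell by 0.91 (q = 0.0219). At 1 day 0 of these 4 markers were called, against 1.07% of rows, with 2 at an unadjusted limma p under 0.05. Their part in the Retnlg result was not tested.

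Ltf rose in βENaC mice at both durations. At 1 day WT mice ran from 6.47 through 7.14 to 7.91 and βENaC mice from 7.40 through 8.08 to 8.72, with overlap between 7.40 and 7.91. The coefficient was 0.87 ± 0.12 (1.83-fold, q = 1.71e-06), and it was 0.70 ± 0.15 among sham mice (q = 0.00906) and 1.05 ± 0.15 among smoke-exposed mice (q = 5.38e-05). At 5 days WT mice ran from 6.85 through 7.82 to 9.12 and βENaC mice from 7.61 through 8.24 to 8.73. The coefficient was 0.44 ± 0.12 (1.36-fold, q = 0.0132), with 0.50 ± 0.14 among sham mice (q = 0.0362) and 0.42 ± 0.15 among smoke-exposed mice (q = 0.170). The call among sham mice at 5 days was lost without any 1 of 9 mice, namely replicates 1, 5 and 6 of the WT females, 2, 4 and 5 of the WT males, 3 and 4 of the βENaC females and 1 of the βENaC males. The genotype coefficient was 0.43 ± 0.17 smaller at 5 days (unadjusted p = 0.0143, q = 0.813), and in that term 0 of 9 genes and 0% of rows were called.

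Ltf values of WT smoke-exposed females and males lay apart at 5 days. The 5 females measured 7.92, 8.61, 8.09, 8.53 and 9.12, and the 4 males 7.33, 7.31, 7.19 and 7.15. Females lay above males without overlap in 1 of the 9 genes, and in 0.734% of all rows. In WT sham mice at 5 days the females ran from 7.66 to 8.41 and the males from 6.85 to 7.85, and in βENaC mice the sexes overlapped. The sex coefficient over all mice at 5 days was −0.45 ± 0.12 (1.37-fold lower in males, q = 0.0714), while at 1 day it was 0.14 (95% interval −0.10 to 0.37, q = 0.537). The difference between durations was −0.59 ± 0.17 (unadjusted p = 9.23e-04, q = 0.0813), and 0 of the 9 genes passed in that term, against 0.654% of rows. Exposure itself had coefficients of −0.06 and 0.09 for Ltf (q = 0.817 and 0.766).

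**Figure D5:**
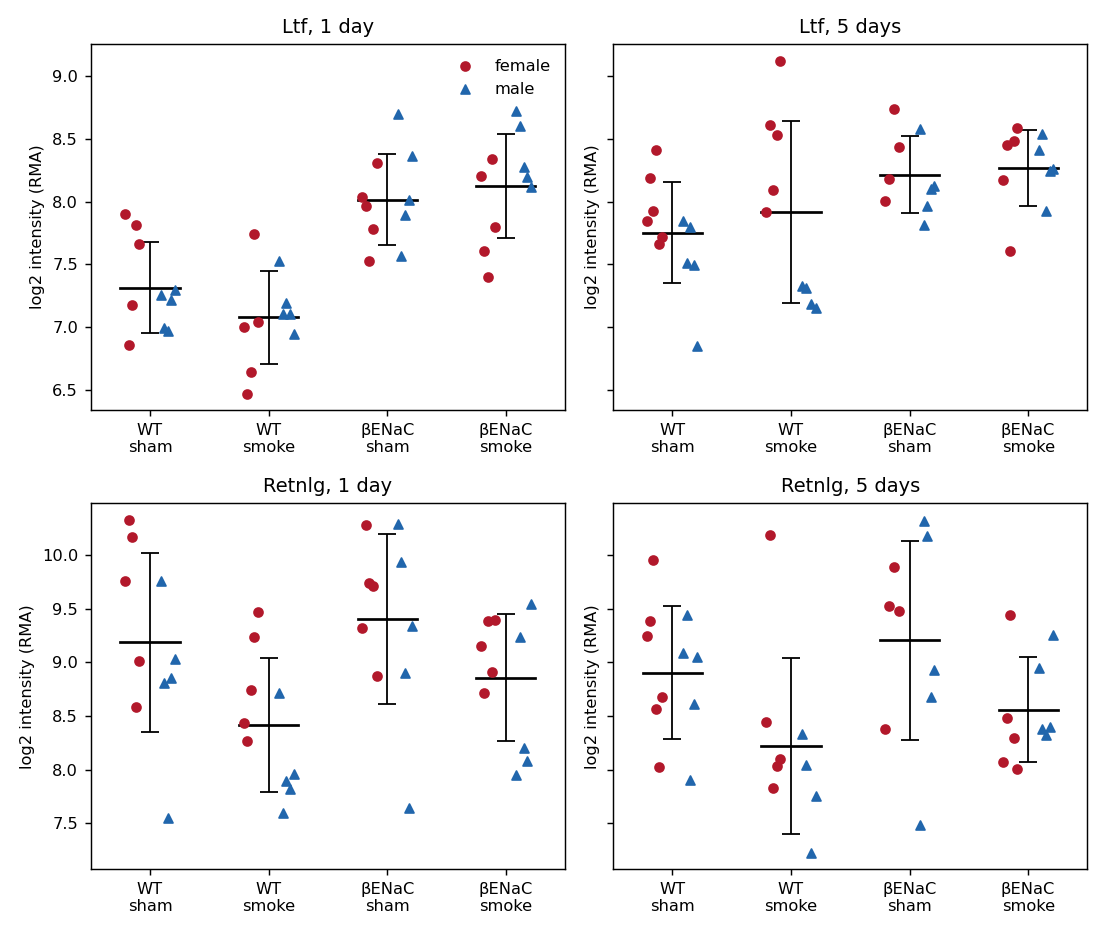
Ltf and Retnlg log2 intensity (vertical axes) of each mouse by genotype, exposure and duration, females as circles and males as triangles, with bars at the mean ± SD of the arm. Ltf at 1 day averaged 7.31 and 7.08 in the WT arms and 8.02 and 8.13 in the βENaC arms, and the 4 WT smoke-exposed males at 5 days lie below the 5 females.

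The rows most like Ltf were Cdhr4 (r = 0.757), a cadherin-related gene, the secreted mucin gene Muc5b (0.738), Anxa8 (0.733), the protease inhibitor gene A2ml1 (0.727) and the membrane mucin gene Muc4 (0.723). Muc5b was called with genotype at both durations (0.82 and 0.78), as were A2ml1 (2.52 and 1.73) and Muc4 (0.87 and 0.81), against 1.54% and 2.52% of all rows. Cdhr4 (0.57) and Anxa8 (0.42) were called at 1 day only, with 0.36 and 0.18 at 5 days. Cdhr4 also rose with smoke at 5 days by 0.40 (q = 3.41e-07). Within groups the r of these rows with Ltf was 0.417 to 0.563. None of S100a8, S100a9, Cxcr2 and Csf3r was among the rows most like Ltf.

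Ngp and Camp, which encode neutrophilic granule protein and cathelicidin, stayed low in every mouse. Ngp lay between 2.61 and 4.49 and Camp between 3.01 and 3.70, in a table whose values start at 1.98 and whose array medians lie between 4.44 and 4.55. No detection call was used, so whether these rows stood above background is not known here. Exposure coefficients were 0.12 and −0.02 for Ngp and 0.02 and 0.05 for Camp, and none was called. Camp had a genotype coefficient of 0.13 at 1 day (q = 0.0418), under the 1.3-fold limit. The within-group SD of Camp, 0.14, exceeded that of 33.8% of rows, and the rows most like it were Selenoi (r = 0.507) and D10Wsu102e (0.493). The row most like Ngp was Hbq1b (0.502), followed by Gprin2 (0.437) and the myeloperoxidase gene Mpo (0.430).

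Other neutrophil genes were read from lists by role. None of the 5 azurophil granule genes was called by limma for exposure, genotype or sex, with 0 or 1 of 5 at an unadjusted p under 0.05 in each. Their mean level stayed between 3.01 and 3.33 in all mice, below the array medians of 4.44 to 4.55. Whether these rows stood above background is not known here. Of 5 measured genes of the specific and gelatinase granules, Lcn2, the siderophore-binding protein gene, rose in βENaC mice by 0.85 at 1 day and 1.01 at 5 days (q = 2.33e-08 and 1.32e-11). Cd177, a surface protein gene of neutrophil subsets, rose by 3.28 and 3.63 (q = 9.14e-17 and 3.24e-21), and the other 3 were not called. Of all rows 1.54% were called with genotype at 1 day and 2.52% at 5 days, beside these 2 of 5 genes. Within groups the mean of this list correlated with S100a8 at 0.865, with Csf3r at 0.891 and with Cxcr1 at 0.324. With group means left in, over the 79 mice, it correlated with S100a8 at 0.497, with Csf3r at 0.397 and with Cxcr1 at 0.706.

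Surface genes of neutrophils were compared between genotypes. At 1 day 2 of 9 measured genes were called, against 1.54% of all rows, and at 5 days 4 of 9, against 2.52%. With genotype the formyl peptide receptor gene Fpr2 fell by 0.40 at 1 day and 0.51 at 5 days (q = 0.0131 and 2.33e-04), while the integrin gene Itgb2 rose by 0.41 and 0.66 (q = 0.0165 and 4.38e-06). At 5 days the lectin genes Clec4e and Clec4d rose by 0.53 and 0.68 (q = 0.0336 and 0.00506). Their list mean correlated with Cxcr2 at 0.869 within groups, and with Cxcr1 at 0.415.

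Among 6 measured attractant genes, whose products act on Cxcr1 and Cxcr2 or call neutrophils otherwise, Cxcl5 rose in βENaC mice by 1.46 and 1.47 at the 2 durations (q = 1.68e-05 and 6.63e-10) and Cxcl1 rose by 0.81 and 0.95 (q = 0.0290 and 3.74e-06). Cxcl3 rose at 5 days by 0.43 (q = 0.0190), and the platelet chemokine gene Ppbp fell at 1 day by 0.51 (q = 0.0345). With genotype 3 of the 6 were called at each duration, against 1.54% of all rows at 1 day and 2.52% at 5 days. With exposure 0 of the 6 were called by limma at either duration, against 1.07% and 1.15% of rows. At an unadjusted limma p under 0.05 there were 0 at 1 day and 1 at 5 days. In the term of exposure by duration 1 of the 6 passed on q alone, against 1.3% of rows. It was Cxcl15, a chemokine gene of lung epithelium, whose response was lower at 5 days by 0.18 ± 0.04 (q = 0.00993). Cxcr2, a receptor for these ligands, had genotype coefficients of 0.23 and 0.21 in the same lungs (q = 0.667 and 0.536).

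Monocyte and red cell markers moved with exposure beside Csf3r and Retnlg. All 6 of 6 measured monocyte markers had coefficients below 0 with smoke at both durations. At 1 day Ly6c2 and Fcgr1 were called, against 1.07% of all rows. At 5 days Ccr2, Cx3cr1 and Fcgr1 were called, against 1.15%. Where called, these genes fell by 0.38 to 0.52. The mean level of the 6 markers ran from 7.26 to 8.90 in sham and 7.19 to 7.94 in smoke-exposed mice at 1 day, and from 7.36 to 8.05 and 6.66 to 7.66 at 5 days. All 5 measured red cell genes rose with smoke at 5 days, Slc4a1 by 1.89 (q = 1.28e-08), with list means of 5.93 to 8.01 in sham and 6.95 to 8.81 in smoke-exposed mice. At 1 day 0 of the 5 were called, with 3 at an unadjusted limma p under 0.05. Markers of T cells, B cells, platelets, and mast cells and basophils were not called at either duration, with 0 of 4 in each list. In each of these lists 0 to 2 of 4 had an unadjusted limma p under 0.05. Within groups the monocyte mean correlated with Csf3r at 0.611 and with Retnlg at 0.378, and the red cell mean at 0.0474 and −0.0572. The part of these cells in the results was not tested.

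Tests of the remaining terms called none of the 9 genes. In βENaC mice exposure called 0 of 9 by limma at 1 day against 0.759% of rows and 0 of 9 at 5 days against 0.778%, and 0 had an unadjusted p under 0.05 at either duration. The joint test of exposure with genotype or sex called 0 of 9 against 0.00638% of rows at 1 day and 0% at 5 days. At an unadjusted p under 0.05 it gave 0 genes at 1 day and 3 at 5 days, of which Cxcr1 had an unadjusted p of 4.68e-05 and q = 0.740. Exposure by duration over both genotypes called 0 of 9 with 1 at an unadjusted p under 0.05, against 1.3% of rows, and Cxcr1 at 0.88 ± 0.38 (unadjusted p = 0.0224, q = 0.287).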

How the data were processed

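The authors scanned 1 Affymetrix moGene2.1 array per mouse on a single plate, checked quality in Expression Console 1.4 and normalised in Partek 6.6. The deposited values are log2 intensities after RMA background correction, GC and probe-sequence correction, quantile normalisation and median polish. 1 array was removed by the authors as mislabelled. Groups came from the sample titles. Rows were named through RefSeq accessions (21057 rows) or the study's own tables (780 rows). R 4.3.3 and limma 3.58.1 fitted exposure, genotype and sex together, separately at each duration, over all 31350 rows with Benjamini-Hochberg adjustment, and group-mean contrasts gave responses within a genotype or exposure. The 1.3-fold limit and q below 0.05 follow the study's methods. Terms between durations and tests of exposure with genotype or sex used q alone. Quantile normalisation makes every array's distribution equal, so a shift of most genes would not be visible. Array values carry no read depth, and precision is set by how many arrays each arm holds. Genes named were the 9 members, Scnn1b, genes of fixed lists by role or cell type, and the 5 named rows with the highest Pearson r to each member over the 79 mice. Rows picked by r come from the values they are then compared on, so their calls are no separate support. The members and lists were chosen with earlier results of these data known. Alternatives were another model, normalisation, filter or weighting, a replicate block, and leaving out each mouse. Leaving out the 3 least correlated arrays, the terms by genotype and duration for Cxcr1 and genotype among smoke-exposed mice were added after the data were seen. Replicates were separate mice. The fit was tested on simulated data. A result on a listed surface gene is not reported here.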

Additional observations from a re-analysis of the deposited data

Results flagged for a closer look

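In 144 combinations of gene and group, 8 values stood apart from the rest of their group by Dixon's criterion, which chance meets in about 1 of 20 groups. The genes share mice, so these values are not independent. Replicate 1 of the βENaC sham males at 1 day was high in Cxcr2 (8.62, next mouse 6.75), S100a8 (8.78, next 6.96) and S100a9 (8.46, next 6.47), and its array was among the 3 least correlated with the others. Replicate 2 of the WT smoke-exposed females at 5 days, another of those 3, was high in Retnlg (10.19, next 8.44) and Ngp (4.02, next 3.01). Ngp was also high in replicate 1 of the βENaC smoke-exposed males at 5 days (3.83). S100a8 was high in replicate 3 of the WT sham females at 5 days (8.25), and S100a9 in replicate 2 of the WT smoke-exposed males at 5 days (6.42, next 5.77).

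The exposure response of Cxcr1 in WT mice differed between the 2 durations by 2.01 (limma, q = 6.46e-04), and this term was added after the data were examined.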

How the results depend on the processing

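Of 171 recomputed counts of called members, 153 stayed within 1.5 times of the reported count, 5 were lower and 13 higher, and of 582 recomputed coefficients 10 changed sign. Exposure at 1 day called 2 members (Csf3r and Retnlg) with quantile normalisation, without the 30% dimmest rows, with array weights and in 1 fit over 79 mice. Exposure at 5 days called 2 (Cxcr1 and Retnlg) without the dimmest rows, with the replicate block and in 1 fit, and 3 (with Csf3r) with array weights and without the 3 least correlated arrays, a setting chosen after seeing the data. The last 2 settings also called 1 member (Ltf) for sex at 5 days and 1 (Ltf) for sex by duration. Exposure in WT mice at 5 days called 1 (Cxcr1) with an ordinary linear model, quantile normalisation, median centring and a trended robust prior. The cause of these changes was not tested.

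Same-numbered mice had a median r of deviations of 0.017 at 1 day and −0.0088 at 5 days, against −0.0023 and 0.0027 for other numbers. Single pairs ran from −0.28 to 0.46 and from −0.27 to 0.54 for same numbers. For other numbers they ran from −0.39 to 0.35 and from −0.43 to 0.31. A median near 0 cannot show whether some same-numbered mice shared a batch. With the replicate block, genotype in sham mice at 5 days called 1 member (Cxcr1) and exposure at 5 days called 2.

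The coefficients that changed sign are these. The coefficient of Ltf for exposure at 1 day was 0.000332 with array weights. The coefficient of S100a8 for genotype at 1 day was −0.002541 with quantile normalisation, −0.02318 with weights and −0.06573 without 3 arrays. The coefficient of Camp for sex at 1 day was −0.004607 with median centring. The coefficient of Ngp for exposure at 5 days was 0.001458 with the replicate block. The coefficient of S100a9 for genotype at 5 days was 0.00489 with weights and 0.05216 without 3 arrays. Without those arrays the coefficient of Csf3r for genotype at 5 days was 0.0112 and the coefficient of S100a9 for sex at 5 days was 0.03903.

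Leaving out each mouse gave 1 to 2 called members for exposure at 1 day, 2 to 2 for genotype at 1 day, 0 to 1 for sex at 1 day, 1 to 3 for exposure at 5 days, 2 to 2 for genotype at 5 days, 0 to 1 for sex at 5 days, 1 to 2 for genotype in sham mice at 5 days, 1 to 2 for exposure in WT mice at 5 days and 0 to 1 for sex by duration. The other 8 counts kept their value. The gained calls were Csf3r for exposure at 1 day without replicate 1, 4 or 5 of the WT sham females, 1 or 5 of the βENaC sham females, 2 or 4 of the βENaC sham males, 3 of the WT sham males, 5 of the WT or of the βENaC smoke-exposed females or 1 of the WT smoke-exposed males. Retnlg for exposure at 5 days was gained without replicate 2 of the WT smoke-exposed females, 3 of the βENaC smoke-exposed females, 5 of the βENaC smoke-exposed males, 1 of the βENaC sham females or males, 5 of the WT sham females or 3 of the WT sham males, and Csf3r without the first of these or replicate 1 of the βENaC sham or smoke-exposed males. Ltf was gained for sex at 5 days without replicate 1 of the βENaC sham males or 3 of the βENaC smoke-exposed females, and for sex by duration without the latter or replicate 4 of the WT sham females at 1 day. Csf3r for exposure in WT mice at 5 days was kept only without replicate 2 of the WT smoke-exposed females or males, 5 or 6 of the WT sham females, 3 or 5 of the WT sham males, 1 or 3 of the βENaC sham males, 3 of the βENaC smoke-exposed females or 1 or 5 of the βENaC smoke-exposed males.

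Leaving out single mice also turned small coefficients. For genotype at 1 day the range was −0.066 to 0.12 for S100a8, −0.17 to 0.0098 for S100a9 and −0.017 to 0.096 for Ngp. For sex at 1 day it was −0.12 to 0.11 for Cxcr1, −0.0022 to 0.11 for Ngp and −0.0010 to 0.026 for Camp. For exposure at 5 days it was −0.074 to 0.012 for Ngp. For genotype at 5 days it was −0.083 to 0.059 for S100a9 and −0.089 to 0.016 for Csf3r. For sex at 5 days it was −0.0038 to 0.12 for S100a8, −0.093 to 0.032 for S100a9, −0.026 to 0.18 for Cxcr1, −0.014 to 0.085 for Csf3r and −0.0036 to 0.086 for Ngp.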
